A study of Mus musculus with 12 samples.

Results

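The Myc and Mxd network was followed through 8 genes, chosen by symbol as its best known members: Myc, Mycn, Max, Mnt, Mxd1, Mxd3, Mxd4 and Mxi1. All 8 were measured among 18193 genes, with 1 probe set per gene, the brightest on average across the 12 arrays. The cells were follicular B cells, which recirculate through blood, spleen and lymph nodes. They were sorted for B220, with CD23 high and CD21 low, from C57Bl/6 mice aged 6 weeks. Mice were either IkL/L, homozygous for an allele that leaves cells deficient in the transcription factor Ikaros (gene Ikzf1), or wild type (WT). Cells of each genotype were cultured unstimulated for 3 h, or with 10 µg/ml of an anti-IgM F(ab')2 antibody, which cross-links the B cell receptor, for 3 h or 12 h. The unstimulated cells had 3 h in culture, so the 12 h groups differ from them in culture time as well as in stimulus, and the effects of these cannot be told apart. The IkL/L alleles are carried in every cell of the mouse and throughout development. Each of the 6 groups held 2 arrays (n = 2), 12 arrays in all. The labels do not say whether an array stands for 1 mouse or for pooled mice, so p-values measure the spread between these arrays, which may be partly technical.

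Myc and Mycn are transcription factors that drive growth and division. They bind DNA as pairs with Max, at the E-box CACGTG, and raise transcription. Mnt, Mxd1, Mxd3, Mxd4 and Mxi1 also pair with Max and bind the same E-box, where they bring in Sin3 corepressors and histone deacetylases, so they are counted as antagonists of Myc. In resting lymphocytes antagonists are usually the main partners of Max, and antigen receptor signals are known to induce Myc within hours. Ikaros is a zinc finger factor of lymphocytes that binds sites with the core TGGGAA.

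Promoter sequence is shown for the 3 antagonists that had signal above the floor defined below, changed with stimulation and hold an E-box or an Ikaros core in their promoter window, since these are the letters the network's own factors and Ikaros are known to read. RefSeq windows of 250 bases before a start site, build GRCm38.p6, were available for 7 of the 8 genes, 9 windows in all. Capitals mark the motif, and each line reads 5′ to 3′ on the strand of the gene. The Mnt window is cut at the first base of the annotated gene.
Mnt, chr11:74830674-74830806, plus strand, E-box in capitals: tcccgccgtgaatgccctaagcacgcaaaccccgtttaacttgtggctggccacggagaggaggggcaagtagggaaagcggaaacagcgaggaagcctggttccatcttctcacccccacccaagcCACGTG
Mxd4, chr5:34187711-34187960, minus strand, E-box in capitals: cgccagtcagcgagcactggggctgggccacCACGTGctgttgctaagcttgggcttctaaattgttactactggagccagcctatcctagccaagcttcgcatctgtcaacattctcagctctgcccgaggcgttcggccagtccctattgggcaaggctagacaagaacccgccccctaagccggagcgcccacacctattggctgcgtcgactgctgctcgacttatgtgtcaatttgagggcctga
Mxi1, chr19:53329163-53329412, plus strand, Ikaros core in capitals on the opposite strand: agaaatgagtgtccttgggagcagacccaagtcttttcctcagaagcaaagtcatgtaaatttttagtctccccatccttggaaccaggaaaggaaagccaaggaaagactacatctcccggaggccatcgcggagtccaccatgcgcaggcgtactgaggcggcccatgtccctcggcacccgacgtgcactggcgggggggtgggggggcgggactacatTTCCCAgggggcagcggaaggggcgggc
The E-box CACGTG, which reads the same on both strands, was found in 6.02% of 32851 mouse promoter windows of the same length. Among the network genes it lay in those of Mnt and Mxd4, 123 and 219 bases before the start. Distances are counted to the start site of each window, which can lie inside the annotated gene. The Mnt E-box ends at the first base of its annotated gene, and the Mxd3 and Mxi1 matches lie inside theirs. The Ikaros core TGGGAA, searched as TGGGAA and TTCCCA, was found in 21.6% of windows. It lay in the Mxd3 window, 92 bases before the start, and in a pair of the Mxi1 windows, 206 and 28 bases before their starts. The core read by FOXO factors, GTAAACA or TGTTTAC, was found in 3.17% of windows and in 1 further Mxi1 window, 231 bases before its start. The windows of Mycn, Max and Mxd1 held none of the 3. The motifs do not overlap in these windows, and a match is a description of the letters, not of binding.

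Values are log2 signals on 3′ expression arrays, and a level is compared only with the same probe set on other arrays. Array medians lay between 3.12 and 3.21, and the 2 arrays of each group had a correlation over genes between 0.99 and 0.994. Since the deposited values hold no call of background, values under 4.21 (the largest of those medians plus 1) are described as below the floor. All 7 measured B cell markers and all 3 measured follicular markers were above it on every array, while the 5 T cell, 3 natural killer cell and 3 red cell or platelet markers measured were below it on every array. On the linear scale the B cell markers summed to 15833 to 16832 in IkL/L against 19539 to 20689 in WT unstimulated. They summed to 6895 to 7899 against 8256 to 10493 at 3 h, and to 9374 to 10890 against 9895 to 10496 at 12 h. The follicular markers summed to 459 to 571 in IkL/L and 642 to 756 in WT at 12 h. Over all earlier arrays the follicular sums were 1927 to 2328. The 4 marginal zone markers summed to 685 to 1017 in IkL/L against 438 to 548 in WT at 12 h, and to 598 to 719 in IkL/L against 576 to 589 in WT unstimulated. Of these, Cd9 gave 7.81 and 7.69 in unstimulated IkL/L cells against 5.56 and 5.84 in unstimulated WT cells. The other marginal zone markers together summed lower in unstimulated IkL/L than in unstimulated WT cells. S1pr3 was below the floor on all 4 unstimulated arrays. The 5 plasma cell markers summed to 1552 to 2596 in IkL/L against 1547 to 1621 in WT unstimulated. They summed to 4539 to 5225 against 4564 to 4583 at 3 h, and to 2367 to 2376 against 2177 to 2336 at 12 h. Among them Jchain gave 5.641 and 8.676 in unstimulated IkL/L cells against 5.068 and 6.997 in unstimulated WT cells, Sdc1 was below the floor on every IkL/L array, and Prdm1 was below it on every unstimulated and 12 h array. The part of these markers in the results was not tested. Ikzf1, the targeted gene, gave 10.00 and 9.94 in unstimulated IkL/L cells against 9.85 and 9.83 in unstimulated WT cells. At 3 h it gave 8.58 and 8.08 in IkL/L cells against 8.93 and 9.10 in WT cells, and at 12 h 9.59 and 8.98 against 10.33 and 10.00, all without passing the test between genotypes. The sources used here do not say which part of the transcript that probe set reads, so it does not check the labels. Changes are log2 differences between group means from limma with their standard error (SE), called at an adjusted p under 0.05 (Benjamini-Hochberg over all genes).

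**Figure D1:**
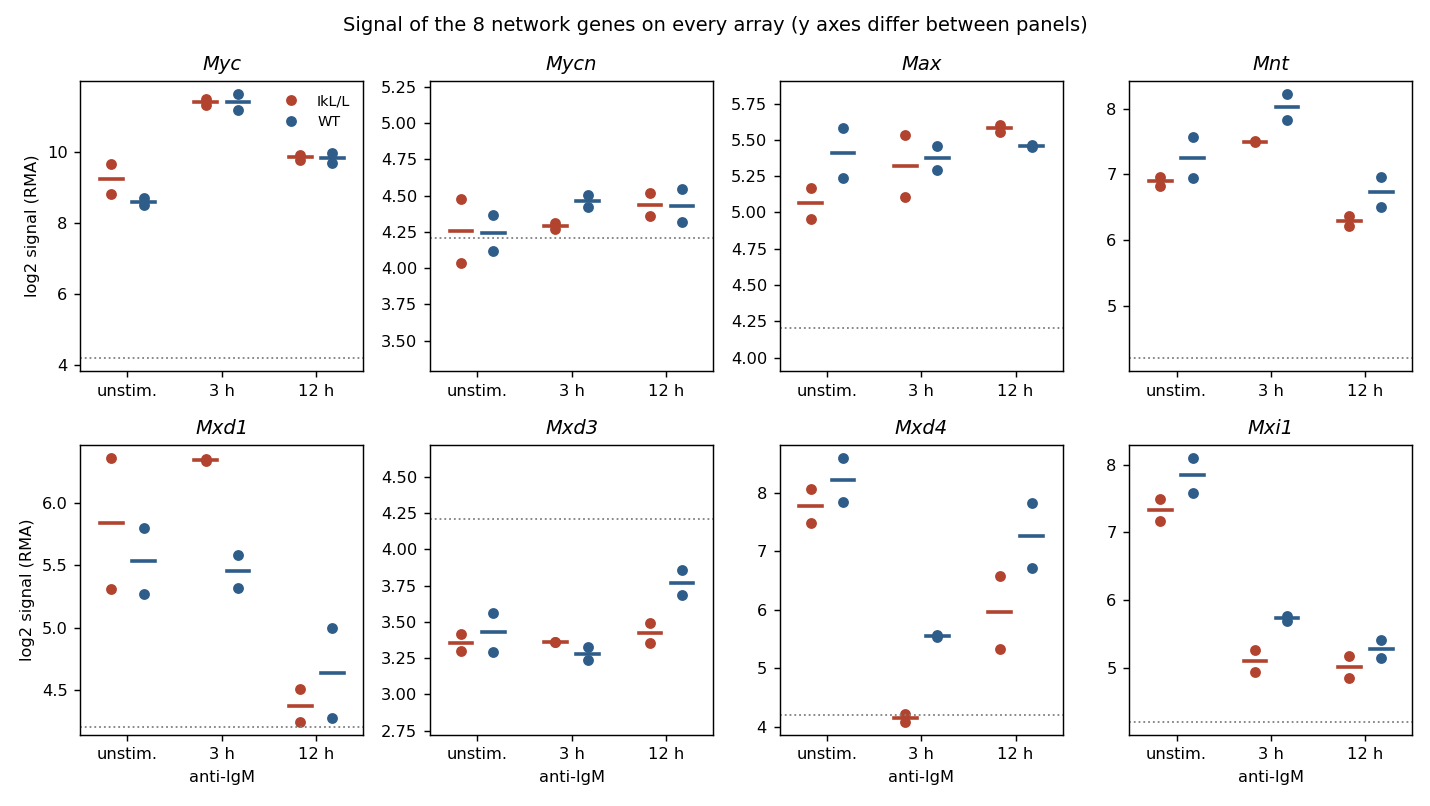
Log2 signal of each network gene (y axis, different in each panel) in unstimulated cells and after 3 h and 12 h of anti-IgM (x axis), with IkL/L arrays in red left of WT arrays in blue, bars at group means of 2 arrays and the floor of 4.21 dotted. Myc peaks at 3 h, Mxd4 is lowest at 3 h, Mxi1 is low at both times, and all 12 arrays of Mxd3 lie under the floor.

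Myc, the activator of the network, rose with anti-IgM in both genotypes and was highest at 3 h. Its gene lies at chr15:61985341-61990361 in GRCm38.p6, and 1 probe set reads it. In IkL/L cells it gave 8.82 and 9.66 unstimulated, 11.31 and 11.49 at 3 h and 9.76 and 9.92 at 12 h. In WT cells it gave 8.70 and 8.50 unstimulated, 11.61 and 11.16 at 3 h and 9.96 and 9.69 at 12 h. In each genotype the 3 h arrays stood above all others and the 12 h arrays above the unstimulated ones, with no overlap. The largest gap between replicates was in unstimulated IkL/L cells, where replicate 2 stood 0.84 above replicate 1. At 3 h Myc rose 4.45-fold over unstimulated cells in IkL/L (log2 2.15, SE 0.25, adjusted p = 0.000206) and 6.91-fold in WT (log2 2.79, SE 0.25, adjusted p = 5.4e-05). From 3 h to 12 h it fell 2.94-fold in IkL/L (log2 -1.56, adjusted p = 0.00234) and 2.95-fold in WT (log2 -1.56, adjusted p = 0.00342). The WT fall was not called without WT replicate 1 or 2 in all conditions (adjusted p = 0.0952 and 0.0778, range over settings 0.000243 to 0.0952).

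At 12 h Myc was still above unstimulated WT cells, by 2.34-fold (log2 1.23, SE 0.25, adjusted p = 0.00626). That call was lost without unstimulated WT replicate 2 (adjusted p = 0.053) and without WT replicate 1 or 2 in all conditions (0.108 and 0.0935, range over settings 0.000415 to 0.108). In IkL/L cells the 12 h difference was 0.60 (SE 0.25, adjusted p = 0.153), not a call. With replicate as a block within genotype it passed (adjusted p = 0.027), and so it did without unstimulated IkL/L replicate 2, where it was 1.02 (adjusted p = 0.012, range over settings 0.012 to 0.706).

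Mycn, a second Myc-type activator best known from embryonic and neural tissue (chr12:12936093-12941836), stayed near the floor. The IkL/L arrays gave 4.48 and 4.03 unstimulated, 4.31 and 4.27 at 3 h and 4.52 and 4.36 at 12 h. The WT arrays gave 4.37 and 4.12 unstimulated, 4.42 and 4.50 at 3 h and 4.55 and 4.32 at 12 h. All 12 values lay within 4.03 to 4.55, 1 unstimulated array of each genotype was under the floor, and no comparison was called.

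Max, a partner with which all the other members bind DNA (chr12:76937269-76962323), moved little. Its IkL/L arrays gave 5.17 and 4.95 unstimulated, 5.53 and 5.11 at 3 h and 5.56 and 5.61 at 12 h. In WT cells it gave 5.24 and 5.58 unstimulated, 5.29 and 5.46 at 3 h and 5.46 and 5.45 at 12 h. The WT groups overlapped, while the 12 h IkL/L arrays stood above the 4 other IkL/L arrays. The 12 h difference in IkL/L was 0.52 (95% interval 0.15 to 0.89, adjusted p = 0.0609), and it passed with replicate as a block within genotype (adjusted p = 0.0238, range over settings 0.0238 to 0.798). In WT the 12 h difference was 0.04 (95% interval -0.33 to 0.42).

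Mnt, the most widely expressed antagonist (chr11:74830806-74845725), whose E-box is shown above, was highest at 3 h and lowest at 12 h by group means in both genotypes. It gave 6.83 and 6.96 in unstimulated IkL/L cells, 7.50 and 7.50 at 3 h and 6.36 and 6.21 at 12 h. In WT cells it gave 6.94 and 7.57 unstimulated, 7.82 and 8.22 at 3 h and 6.51 and 6.96 at 12 h. Within each genotype the 3 h arrays were above all others, and the 12 h arrays were below the unstimulated ones in IkL/L but overlapped them in WT. From 3 h to 12 h Mnt fell 2.32-fold in IkL/L (log2 -1.21, SE 0.22, adjusted p = 0.0046) and 2.44-fold in WT (log2 -1.29, SE 0.22, adjusted p = 0.0048). The IkL/L fall was lost without IkL/L replicate 1 or 2 in all conditions (adjusted p = 0.0987 and 0.152, range over settings 9.66e-05 to 0.958).

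Against unstimulated cells, Mnt rose 1.70-fold at 3 h in WT (log2 0.77, SE 0.22, adjusted p = 0.0339). That call rests on single arrays: it was lost without unstimulated WT replicate 1 (log2 0.46, adjusted p = 0.273), without WT 3 h replicate 2 (log2 0.57, 0.22) and without WT replicate 1 in all conditions (0.0692). Leaving out either IkL/L 3 h array, which the shared spread uses, gave 0.0517, and either IkL/L replicate in all conditions gave 0.0988 (range over settings 0.000896 to 0.365). In IkL/L the 3 h difference was 0.61 (adjusted p = 0.0876), and with replicate as a block within genotype it passed (adjusted p = 0.00382, range over settings 0.00382 to 0.786). At 12 h Mnt stood at -0.61 in IkL/L and -0.52 in WT relative to unstimulated cells (adjusted p = 0.0967 and 0.157), and both passed with that block (0.00437 and 0.01, ranges over settings 0.00437 to 0.876 and 0.01 to 0.732).

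Mxd1, an antagonist known from differentiating blood cells (chr6:86647044-86669234), was lower at 12 h. It gave 5.32 and 6.36 in unstimulated IkL/L cells, 6.34 and 6.35 at 3 h and 4.25 and 4.51 at 12 h. In WT cells it gave 5.27 and 5.80 unstimulated, 5.32 and 5.58 at 3 h and 4.28 and 5.00 at 12 h. In both genotypes the 12 h arrays stood below all others, close to the floor on 1 array of each genotype. In IkL/L cells Mxd1 fell 2.75-fold at 12 h relative to unstimulated cells (log2 -1.46, SE 0.33, adjusted p = 0.0123) and 3.91-fold relative to 3 h (log2 -1.97, SE 0.33, adjusted p = 0.00305). The comparison with unstimulated cells was not called without unstimulated IkL/L replicate 2 (log2 -0.94, adjusted p = 0.0783), without IkL/L 12 h replicate 1 (0.0721) or with replicate 2 of IkL/L left out in all conditions (0.185, range over settings 0.000709 to 0.457). In WT the differences were -0.89 relative to unstimulated cells and -0.81 relative to 3 h (adjusted p = 0.1 and 0.182). Both passed with replicate as a block within genotype (adjusted p = 0.0111 and 0.0266, ranges over settings 0.0109 to 0.985 and 0.0266 to 0.891), and the first also without either unstimulated IkL/L array (0.0329).

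Mxd1 is also abundant in neutrophils, as background, and myeloid markers differed between replicates here. The 6 myeloid markers, summed on the linear scale, ran from 71.5 to 240 over the IkL/L arrays and from 52.7 to 272 over the WT arrays. In unstimulated IkL/L cells the sum was 85.1 and 240, and S100a8 gave 5.10 and 6.80, higher in replicate 2 as Mxd1 and Myc were. At 3 h in IkL/L the sums also differed, with 92.1 on the lower array and 215 on the higher. There Mxd1 gave 6.34 and 6.35, and Myc 11.31 and 11.49. Csf1r, Itgam and Elane were under the floor on all arrays. The part of these markers in the Mxd1 and Myc values was not tested. In bulk samples of this kind, fewer cells of a type and less RNA per cell cannot be told apart.

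Mxd3, an antagonist tied to dividing cells (chr13:55325170-55329900), was under the floor on all 12 arrays, with values from 3.24 to 3.86. Its WT arrays gave 3.29 and 3.56 unstimulated, 3.24 and 3.32 at 3 h and 3.68 and 3.86 at 12 h, so that the 12 h arrays were the highest. In IkL/L cells all 6 arrays lay between 3.30 and 3.49. The WT difference of 12 h over 3 h was called (log2 0.49, SE 0.13, adjusted p = 0.0351), but below the floor no fold is given. That call was lost in 16 of 26 settings, among them both scaling alternatives and the omission of any of the 4 WT arrays compared (adjusted p from 0.0531 to 0.198, range over settings 0.0135 to 0.91).

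Mxd4, an antagonist of quiescent and differentiating cells (chr5:34176580-34187710), gave the widest swing of the network. IkL/L arrays gave 7.48 and 8.07 unstimulated, 4.22 and 4.09 at 3 h and 6.58 and 5.33 at 12 h. In WT cells it gave 7.84 and 8.59 unstimulated, 5.54 and 5.56 at 3 h and 6.71 and 7.82 at 12 h. Within each genotype the 3 time groups did not overlap, with unstimulated cells highest and 3 h lowest. At 3 h Mxd4 fell at least 11.8-fold relative to unstimulated cells in IkL/L, where 1 array of the 3 h group was under the floor (log2 -3.62, SE 0.44, adjusted p = 0.000264). In WT it fell 6.34-fold (log2 -2.67, SE 0.44, adjusted p = 0.00173). With the floor set over genes, at 4.58, the IkL/L bound is 9.15.

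Between 3 h and 12 h Mxd4 rose again, by at least 3.35-fold in IkL/L (log2 1.80, SE 0.44, adjusted p = 0.0201) and by 3.27-fold in WT (log2 1.71, SE 0.44, adjusted p = 0.0341). The IkL/L call was lost without either IkL/L 3 h array (adjusted p = 0.0795 and 0.107), without IkL/L 12 h replicate 1 (log2 1.18, 0.148), and when replicate 1 or 2 of IkL/L was left out in all conditions (0.271 and 0.0567, range over settings 0.00503 to 0.616). The WT call was lost without either WT 3 h array (0.143 and 0.125), without WT 12 h replicate 2 (log2 1.16, 0.227), without WT replicate 1 or 2 in all conditions (0.0905 and 0.403) and without either IkL/L 3 h array (0.0532, range over settings 0.00861 to 0.403). At 12 h Mxd4 was still 3.52-fold below unstimulated cells in IkL/L (log2 -1.82, adjusted p = 0.017), and in WT the difference was -0.96 (95% interval -1.94 to 0.03, adjusted p = 0.195). The IkL/L call was lost without unstimulated replicate 2 (0.109), without 12 h replicate 2 (log2 -1.19, 0.144) and when replicate 2 of IkL/L was left out in all conditions (log2 -0.90, 0.465, range over settings 0.00408 to 0.465). Scaled to housekeeping genes, the differences of 12 h over 3 h were 1.37 in IkL/L and 1.46 in WT, not calls (adjusted p = 0.051 and 0.0772). A dimmer Mxd4 probe set, under the floor on 7 arrays, gave -1.20 in IkL/L and -1.51 in WT at 3 h relative to unstimulated cells, and 0.29 in IkL/L and 0.83 in WT for 12 h over 3 h.

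Mxi1, also called Mxd2, is an antagonist of many tissues (chr19:53310128-53373293) and fell early and stayed low. In IkL/L cells it gave 7.16 and 7.50 unstimulated, 5.26 and 4.94 at 3 h and 5.17 and 4.85 at 12 h. In WT cells it gave 7.58 and 8.10 unstimulated, 5.69 and 5.76 at 3 h and 5.15 and 5.40 at 12 h. The unstimulated arrays stood more than 1 log2 unit above every stimulated array of their genotype. At 3 h Mxi1 fell 4.69-fold in IkL/L (log2 -2.23, SE 0.21, adjusted p = 5.39e-05) and 4.32-fold in WT (log2 -2.11, SE 0.21, adjusted p = 7.36e-05). At 12 h it was 5.00-fold lower in IkL/L (log2 -2.32, adjusted p = 6.59e-05) and 5.92-fold lower in WT (log2 -2.57, adjusted p = 3.31e-05). These 4 calls held in every setting except the second probe set of Mxi1, which is under the floor on all arrays. From 3 h to 12 h the differences were -0.09 in IkL/L and -0.45 in WT, not calls.

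**Figure D2:**
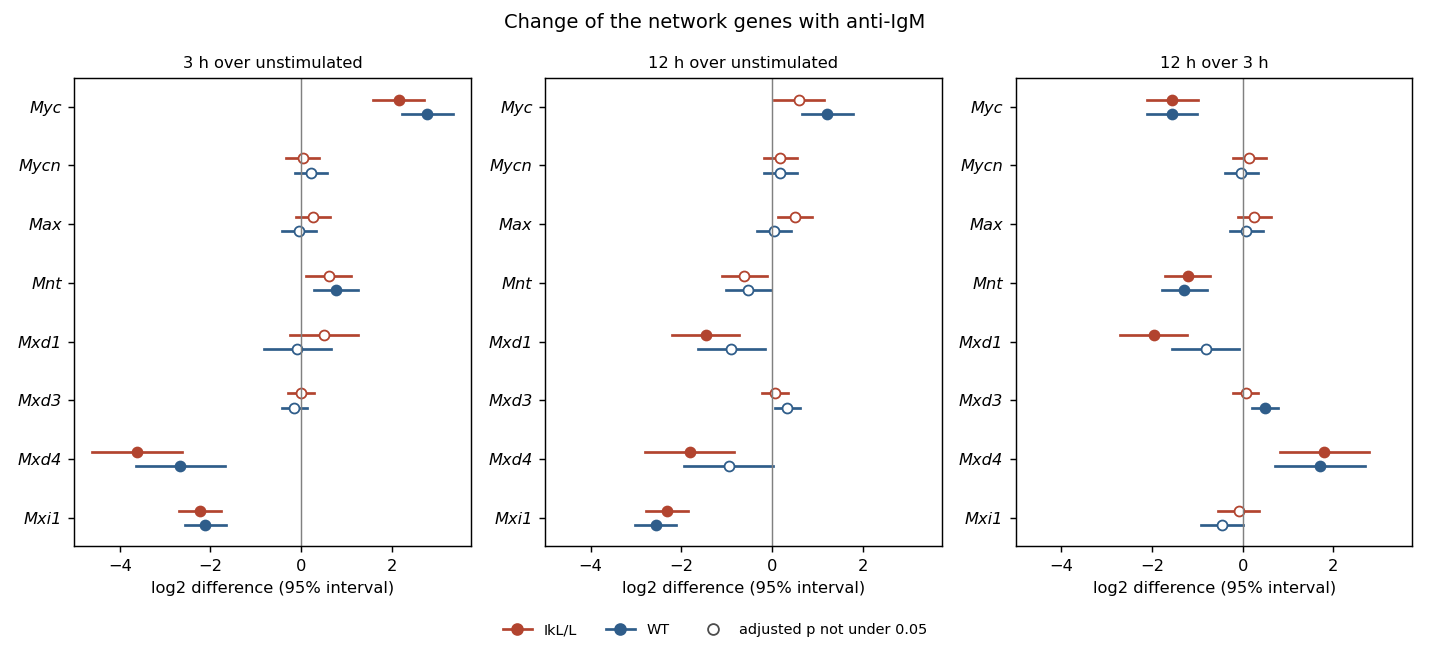
Log2 difference (x axis) of each network gene (rows) for 3 h over unstimulated, 12 h over unstimulated and 12 h over 3 h, with IkL/L in red above WT in blue, bars for 95% intervals and filled points for calls. Mxd4 runs furthest left at 3 h, at -3.62 in IkL/L and -2.67 in WT, and turns right of 0 for 12 h over 3 h.

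Counted over the network, 3 of the 8 genes were called at 3 h in IkL/L (Myc higher, Mxd4 and Mxi1 lower), where 20.4% of all genes were called. In WT 4 of 8 were called (Myc and Mnt higher, Mxd4 and Mxi1 lower), where 19.4% of all genes were called. With replicate as a block within genotype the same 4 were called in both genotypes. At 12 h over unstimulated cells, 3 of 8 were called in IkL/L (Mxd1, Mxd4 and Mxi1, all lower; 17.6% of all genes) and 2 of 8 in WT (Myc higher, Mxi1 lower; 18.8% of all genes). With the block these counts became 6 in IkL/L, adding Myc, Max and Mnt, and 4 in WT, adding Mnt and Mxd1. For 12 h over 3 h, 4 of 8 were called in IkL/L (Mxd4 higher; Myc, Mnt and Mxd1 lower; 15.5% of all genes). In WT 4 of 8 were called as well (Mxd3 and Mxd4 higher, Myc and Mnt lower; 10.8% of all genes). The comparisons within a genotype share its arrays, so their counts are not independent.

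Ordered by group means, Myc ran from 3 h over 12 h to unstimulated cells. At 3 h and at 12 h the genotypes overlapped, with means of 11.40 in IkL/L and 11.39 in WT at 3 h and of 9.84 in IkL/L and 9.83 in WT at 12 h, and at the low end unstimulated IkL/L and WT cells did not overlap (9.24 and 8.60). For Mxd4 the order was unstimulated WT, unstimulated IkL/L, 12 h WT, 12 h IkL/L, 3 h WT and 3 h IkL/L, with means of 8.22, 7.77, 7.26, 5.96, 5.55 and 4.15. Neighbours in that order overlapped except 12 h WT with 12 h IkL/L and 3 h WT with 3 h IkL/L. For Mnt WT 3 h was highest at 8.02 and IkL/L 12 h lowest at 6.29, each apart from its neighbour in the order, and the 4 groups between them overlapped from one to the next.

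Between the genotypes no network gene passed the test in any condition. In unstimulated cells 0 of 8 were called by limma (1.13% of all genes), and 2 had an unadjusted p under 0.05 (1963 of all 18193 genes). At 3 h 0 of 8 were called (1.7% of all genes), and 4 had an unadjusted p under 0.05 (2314 of all genes). At 12 h 0 of 8 were called (0.616% of all genes), and 2 had an unadjusted p under 0.05 (1817 of all genes). Of these 2, Mxd3 was under the floor on all arrays. The genotypes' arrays did not overlap for 3 of 8 genes in unstimulated cells, 6 at 3 h and 4 at 12 h, while 38.7%, 45% and 38.1% of all genes did not overlap in those comparisons. These counts include Mxd3, under the floor on all arrays, at 3 h and 12 h, and Mycn, near the floor, at 3 h. With so few arrays the intervals are wide and do not show that the genotypes are alike.

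The largest differences lay in Mxd4. At 3 h it gave 4.22 and 4.09 in IkL/L against 5.54 and 5.56 in WT, a log2 difference of -1.40 (95% interval -2.39 to -0.41, adjusted p = 0.193). Fitted on the arrays of those groups alone it passed (adjusted p = 0.0195, range over settings 0.0195 to 0.889). At 12 h it gave 6.58 and 5.33 in IkL/L against 6.71 and 7.82 in WT, a difference of -1.31 (95% interval -2.29 to -0.32, adjusted p = 0.33), and in unstimulated cells, where the groups overlapped, -0.45 (95% interval -1.43 to 0.54). The dimmer Mxd4 probe set gave -0.16 at 3 h, with all 4 arrays under the floor, and -0.70 at 12 h, with all but WT replicate 2 under it. Mxi1 stood at -0.51 in unstimulated cells (95% interval -0.97 to -0.05, adjusted p = 0.384) and -0.63 at 3 h (95% interval -1.09 to -0.17, adjusted p = 0.212), without overlap in either. Mnt stood at -0.52 at 3 h (95% interval -1.01 to -0.03, adjusted p = 0.358).

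In the other direction, Myc in unstimulated cells stood 0.64 higher in IkL/L (95% interval 0.08 to 1.20, adjusted p = 0.36), and 0.01 higher at both 3 h and 12 h (95% intervals -0.55 to 0.57 at both). Mxd1 at 3 h gave 6.34 and 6.35 in IkL/L against 5.32 and 5.58 in WT, a difference of 0.89 (95% interval 0.15 to 1.63, adjusted p = 0.278). Of the 4 dendritic cell markers, Itgax, Siglech and Xcr1 were under the floor in all groups, and the summed signal at 3 h was 88.6 and 91.2 in IkL/L against 47.9 and 61.6 in WT. That difference came with Flt3, at 6.03 and 6.06 in IkL/L against 5.17 and 4.54 in WT, and its part in the Mxd1 values was not tested.

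Averaged over the 3 conditions, a comparison added after the values were seen, Mxd4 and Mxi1 were called lower in IkL/L (2 of 8 members, where 6.08% of all genes were called). Neither was called with replicate within genotype as a random block (adjusted p = 0.088 and 0.102), or without replicate 2 of either genotype.

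**Figure D3:**
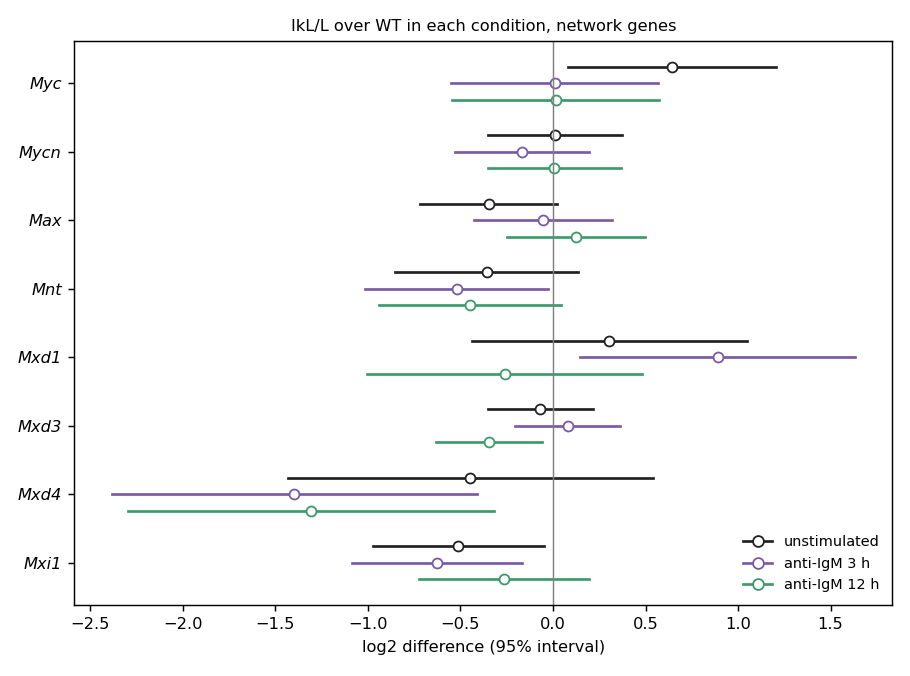
Log2 difference of IkL/L over WT (x axis) for each network gene (rows) in unstimulated cells (black), at 3 h (purple) and at 12 h (green), with 95% intervals. All 24 points are open, since none passed the test, and the Mxd4 points at 3 h and 12 h lie furthest from 0, at -1.40 and -1.31.

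The responses themselves were compared through an interaction term, the IkL/L response minus the WT response. At 3 h 0 of 8 network genes were called by limma (0.0385% of all genes), and 0 had an unadjusted p under 0.05 (1027 of all 18193 genes). At 12 h 0 of 8 were again called (0.022% of all genes), and 0 had an unadjusted p under 0.05 (1126 of all genes). The Myc response differed by -0.63 at 3 h (95% interval -1.43 to 0.16) and by -0.63 at 12 h (95% interval -1.42 to 0.16). Its unstimulated level enters both differences. The Mxd4 response differed by -0.95 at 3 h (95% interval -2.35 to 0.44) and by -0.86 at 12 h (95% interval -2.26 to 0.53), wide intervals on both sides of 0.

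Genes that Myc is widely described to raise rose in large part with stimulation. Of 40 such genes, 38 were measured. The list was written down from general knowledge, with earlier results of these data known. It covers ribosome assembly, nucleotide and polyamine synthesis, glycolysis and the cell cycle. Of the 38, 37 had a group mean above the floor, while the shares given here count all genes, also those under it. At 3 h 31 rose and 0 fell in IkL/L, with a list median of 1.19 beside -0.03 over all genes, where 9.82% of all genes rose. In WT 32 rose and 1 fell, with a median of 1.37 beside 0.02, where 9.15% of all genes rose. At 12 h over unstimulated cells 26 rose and 0 fell in IkL/L (median 0.74 beside 0.02, with 9.72% of all genes higher), and 29 rose and 1 fell in WT (median 0.95 beside 0.05, with 10.1% of all genes higher). From 3 h to 12 h 2 rose and 10 fell in IkL/L (median -0.33 beside 0.05, with 6.42% of all genes lower), and 1 rose and 10 fell in WT (median -0.30 beside 0.02, with 4.33% of all genes lower).

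The counts at 12 h depend on single arrays and on scaling. Leaving out replicate 2 of IkL/L in all conditions left 14 rises over unstimulated cells there, and leaving out replicate 1 of WT left 15. Housekeeping scaling, which moved the median of all genes at 12 h over unstimulated cells by -0.45 in IkL/L and -0.30 in WT, left 15 rises in IkL/L and 18 in WT. The falls between 3 h and 12 h in IkL/L numbered 3 without its replicate 2 in all conditions, 4 or 5 without either of its 3 h arrays or 12 h replicate 1, and 23 with housekeeping scaling. In WT they numbered 0 without its replicate 2 in all conditions, 2 to 6 without any 1 of its 3 h and 12 h arrays, and 16 with replicate as a block within genotype. With that block 1 gene of the list fell in IkL/L at 3 h and 1 at 12 h over unstimulated cells, and in WT 2 fell at 12 h over unstimulated cells and 2 rose between 3 h and 12 h.

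Among them Shmt1, an enzyme of one-carbon metabolism, rose 6.14-fold at 3 h in IkL/L (log2 2.62, adjusted p = 2.35e-05) and 7.30-fold in WT (log2 2.87, adjusted p = 1.75e-05). Hk2, a hexokinase, rose 4.95-fold in IkL/L and 6.45-fold in WT. Srm, the spermidine synthase, rose 3.98-fold in IkL/L and 5.70-fold in WT, and Rcc1, an exchange factor for the GTPase Ran, 4.53-fold in IkL/L and 3.84-fold in WT. All 8 of these calls held in every setting tried. The gene that fell in WT was E2f2, a cell cycle factor (log2 -1.70, adjusted p = 0.00512), named after its values were seen.

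Between the genotypes 1 of the 38 measured genes of the list was called in unstimulated cells (1.13% of all genes). At 3 h 1 was called (1.7% of all genes), and at 12 h 0 (0.616% of all genes). Both calls were Odc1, the ornithine decarboxylase of polyamine synthesis, again named after its values were seen, which was higher in IkL/L by 1.03 unstimulated (adjusted p = 0.00252) and by 0.80 at 3 h (adjusted p = 0.00881). The unstimulated call was lost without IkL/L replicate 2 (adjusted p = 0.0935) or WT replicate 2 (0.0964) in all conditions (range over settings 0.000163 to 0.297). The 3 h call was lost in 10 of 25 settings, among them the omission of either WT 3 h array (0.0506 and 0.0728) or of IkL/L 3 h replicate 2 (0.0742, range over settings 0.00111 to 0.718).

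**Figure D4:**
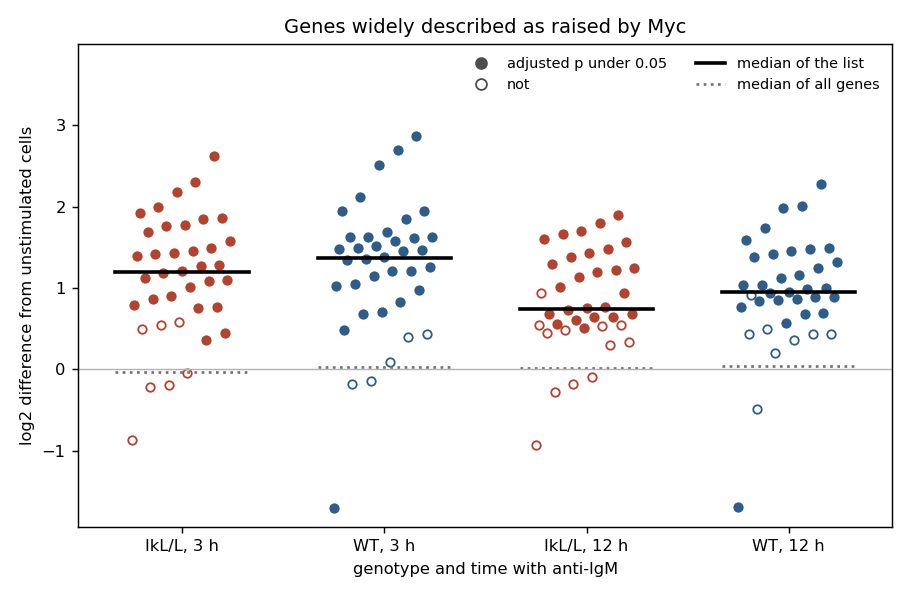
Log2 difference from unstimulated cells (y axis) of 38 genes widely described as raised by Myc, in IkL/L (red) and WT (blue) at 3 h and 12 h (x axis), with calls filled, the list median as a black bar and the median of all genes dotted. List medians of 1.19 and 1.37 at 3 h and 0.74 and 0.95 at 12 h stand above all-gene medians near 0, and the lowest filled point in WT is E2f2.

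Of 14 genes that Myc is described to lower, all measured, 0 rose and 4 fell at 3 h in IkL/L (median -0.02 beside -0.03 over all genes), where 10.6% of all genes fell. In WT 1 rose and 5 fell (median -0.07 beside 0.02), where 10.2% of all genes fell. At 12 h 1 rose and 5 fell in each genotype, with medians of -0.12 in IkL/L and 0.03 in WT, where 7.87% of all genes fell in IkL/L and 8.66% in WT. The 3 h falls numbered 2 without replicate 1 or 2 of IkL/L in all conditions and 3 without WT replicate 1, and the 12 h falls 3 without replicate 2 of either genotype. With replicate as a block within genotype 2 genes rose in each of these 4 comparisons. Of the 14 genes, 9 had a group mean above the floor, while the counts and medians include all 14. Cdkn1b, an inhibitor of cyclin-dependent kinases, fell at least 4.80-fold at 3 h in IkL/L and 4.73-fold in WT (adjusted p = 0.000163 and 0.000185). Tsc22d1, a regulator of transcription with a leucine zipper, fell 6.14-fold at 12 h in IkL/L and 15.7-fold in WT (adjusted p = 0.000369 and 3.06e-05). Gadd45g, a growth arrest gene, fell 4.66-fold at 12 h in IkL/L and 3.27-fold in WT. Ndrg4 was the gene that rose at 12 h in IkL/L (log2 1.54, adjusted p = 0.0394, at least 1.91-fold). That call was lost in 10 of 26 settings, among them the omission of either unstimulated array of IkL/L (0.117 and 0.138) or of WT (0.0549) and of IkL/L 12 h replicate 2 (0.304, range over settings 0.00206 to 0.381).

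Of 20 genes for cofactors and turnover of Myc, 6 rose and 4 fell at 3 h in IkL/L (median 0.24 beside -0.03 over all genes), and 5 rose and 4 fell in WT (median 0.07 beside 0.02). The shares of all genes there were 9.82% higher and 10.6% lower in IkL/L, and 9.15% higher and 10.2% lower in WT. The falls in IkL/L numbered 2 without its 3 h replicate 2, and in WT 3 rose and 2 fell without its replicate 2 in all conditions. Bin1, known as a Myc-interacting adaptor, fell 3.97-fold in IkL/L and 4.30-fold in WT at 3 h (adjusted p = 9.51e-06 and 8.43e-06). Ruvbl2, an ATPase that binds Myc, rose 2.32-fold in IkL/L and 3.04-fold in WT at 3 h. Pim2, a kinase, fell 3.60-fold in IkL/L and 2.85-fold in WT at 3 h and rose 5.76-fold in IkL/L and 3.52-fold in WT between 3 h and 12 h. Its 3 h call in WT was lost without WT replicate 2 in all conditions (0.0508, range over settings 0.000183 to 0.0508). Bptf, a chromatin remodelling subunit, fell 1.88-fold in IkL/L and 2.99-fold in WT at 3 h. The IkL/L call was lost without replicate 2 of unstimulated cells (0.0508) or of 3 h cells (0.0842) and without IkL/L replicate 2 everywhere (0.101, range over settings 0.000107 to 0.101). At 12 h 2 of the 20 rose and 4 fell in IkL/L (median -0.14 beside 0.02), and 4 rose and 2 fell in WT (median -0.09 beside 0.05), where 9.72% of all genes rose and 7.87% fell in IkL/L and 10.1% rose and 8.66% fell in WT. With replicate as a block within genotype 4 rose and 7 fell in IkL/L, and 4 fell in WT. The IkL/L falls numbered 2 without 12 h replicate 2 or without replicate 1 or 2 in all conditions, and 11 with housekeeping scaling. The IkL/L rises numbered 1 without replicate 1 in all conditions and 0 with housekeeping scaling. The WT rises numbered 2 without any 1 of the unstimulated or 3 h WT arrays, WT 12 h replicate 2, either IkL/L 3 h array or WT replicate 1 or 2 in all conditions. The WT falls numbered 1 without WT replicate 1 or 2 in all conditions and 5 with housekeeping scaling.

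The corepressors that the antagonists bring in were measured through 13 of 16 genes of the Sin3 and Ncor complexes. At 3 h 3 rose and 4 fell in IkL/L (median -0.28 beside -0.03 over all genes), and 2 rose and 4 fell in WT (median -0.30 beside 0.02). At 12 h 2 rose and 4 fell in IkL/L (median -0.21 beside 0.02), and 2 rose and 3 fell in WT (median -0.04 beside 0.05). Over all genes 9.82% rose and 10.6% fell at 3 h in IkL/L, and 9.15% rose and 10.2% fell in WT, and at 12 h 9.72% rose and 7.87% fell in IkL/L, and 10.1% rose and 8.66% fell in WT.

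These corepressor counts depend on single replicates. At 3 h in IkL/L 0 rose without replicate 1 or 2 in all conditions and 1 without 3 h replicate 2, while the falls numbered 1 without replicate 1 and 0 without replicate 2 in all conditions. In WT at 3 h 1 rose without unstimulated replicate 1, and 0 without unstimulated replicate 2, 3 h replicate 1 or replicate 1 or 2 in all conditions. At 12 h in IkL/L the rises numbered 1 without any 1 array except unstimulated replicate 1 of IkL/L and the 12 h WT arrays, and 0 without IkL/L replicate 1 or 2 in all conditions. The falls there numbered 2 without unstimulated replicate 2 or 12 h replicate 1, 1 without replicate 2 in all conditions and 7 with housekeeping scaling. In WT at 12 h 0 rose without either unstimulated array, 12 h replicate 1 or WT replicate 1 or 2 in all conditions, and 1 without 12 h replicate 2, either IkL/L 3 h array or IkL/L replicate 1 or 2 in all conditions. With housekeeping scaling 0 rose at 12 h in either genotype.

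Arid4a, which binds Sin3, fell at least 1.23-fold at 3 h in IkL/L and at least 2.14-fold in WT (adjusted p = 0.00163 and 0.00012). The IkL/L call was lost without its replicate 2 in all conditions (0.0629, range over settings 0.000149 to 0.0629). For its relative Arid4b the probe sets disagree. The brightest fell 1.60-fold at 3 h in IkL/L and 1.74-fold in WT (adjusted p = 0.00226 and 0.000905), while the second brightest rose in IkL/L (log2 0.70, adjusted p = 0.0401, range over settings 0.000864 to 0.959).

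Sap30, a Sin3 subunit, rose 2.57-fold at 3 h in IkL/L (adjusted p = 0.0195), with a difference of 0.93 in WT (adjusted p = 0.104). The IkL/L call was lost when unstimulated replicate 1 (0.139), 3 h replicate 2 (0.136) or replicate 1 or 2 in all conditions was left out (the last with 0.147 and 0.102, range over settings 0.00509 to 0.147). Ing1, a reader of histone marks in that complex, fell 1.72-fold in IkL/L and 1.82-fold in WT at 3 h. Its IkL/L call was lost without replicate 1 or 2 in all conditions (0.093 and 0.122, range over settings 0.00216 to 0.122).

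Between the genotypes, 3 genes of the cofactor and corepressor lists, with 20 and 13 genes measured, were called at 1 time each. Of all genes 1.13% were called in unstimulated cells and 0.616% at 12 h. Bptf and Arid4b were lower in unstimulated IkL/L cells (log2 -1.01 and -0.59, adjusted p = 0.0497 for both), and Bin1 was higher in IkL/L at 12 h (log2 0.76, adjusted p = 0.0328). These calls were lost in 15, 22 and 18 of 25 settings, among them the omission of any array compared except IkL/L 12 h replicate 1 for Bin1. The adjusted p ranged over settings from 0.0155 to 0.378 for Bptf, from 0.0282 to 0.325 for Arid4b and from 0.0235 to 0.937 for Bin1. The Bin1 response at 12 h differed between genotypes by 0.73 (adjusted p = 0.453), not a call.

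Of 5 further factors that pair with Max or its relative Mlx, 1 rose and 0 fell at 3 h in IkL/L, and 1 rose and 1 fell in WT, where 9.82% of all genes rose in IkL/L and 9.15% rose and 10.2% fell in WT. With replicate as a block within genotype 2 fell in WT, and the fall, Mlxip, was lost without any 1 of the 4 WT arrays compared or WT replicate 1 or 2 in all conditions (adjusted p from 0.0646 to 0.253, range over settings 0.00727 to 0.253). Mga, another partner of Max, rose 1.65-fold at 3 h in IkL/L and 1.69-fold in WT (adjusted p = 0.00476 and 0.00392). It fell 2.12-fold from 3 h to 12 h in IkL/L and 1.90-fold in WT. Without replicate 1 of IkL/L in all conditions the 3 h rise there was lost (0.155, range over settings 0.00251 to 0.155). Both WT calls of Mga were lost without WT replicate 1 or 2 in all conditions (0.126 and 0.0655 at 3 h, 0.0772 and 0.113 for 12 h over 3 h, ranges over settings 0.00208 to 0.252 and 0.00142 to 0.113). Mlxip, a nutrient-sensing partner of Mlx, fell 2.14-fold at 12 h over unstimulated cells in IkL/L and 2.00-fold in WT (adjusted p = 0.000288 and 0.000413). Of the 5 factors, 3 had a group mean above the floor.

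The genes whose signal over the 12 arrays was most like that of a member were taken by Pearson correlation among 7804 genes above the floor on average. For Myc these were Cluh (r = 0.988), Snhg17 (0.987) and Plek (0.984). For Mnt they were Dusp3 (0.981), Pptc7 (0.956) and Blk (0.956), and for Mxd1 Prkx (0.959), Ppm1l (0.944) and 2210408K08Rik (0.943). Mxd4 was closest to H2az2 (0.979), Nckap1l (0.979) and Fam169b (0.977), and Mxi1 to Elk4 (0.992), Rasa3 (0.989) and Itpr3 (0.986). Max and Mycn, which varied little, had no gene above r = 0.853 (Dpp3) and 0.848 (Foxm1). These values describe arrays that share genotype and time, and they carry no test.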

How the data were processed

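Transcripts of 12 samples were measured on Affymetrix mouse 3′ expression arrays from 100 ng of total RNA labelled in 2 cycles, per the labels' protocols. The deposited values are log2 signals of probe sets, made by the authors with RMA according to the submitters' processing notes. RMA corrects background and makes the arrays' distributions alike, which can hide a shift common to most genes. The sample titles gave group and replicate. The platform annotation pairs 34945 of 45037 probe sets with a single gene and 9160 with none. Each of 18193 genes was read from its brightest probe set. For the members 11 of 19 probe sets were thus not used, 10 of them below the floor on all arrays.

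A model of 6 group means over the 12 arrays was fitted with limma 3.58.1 (R 4.3.3), whose empirical Bayes step had 6 residual and 3.95 prior degrees of freedom. There were 11 comparisons, each adjusted over all genes by Benjamini-Hochberg, called under 0.05. Intervals are moderated 95% intervals. The number of arrays limits the precision. The fit was tried on simulated data with independent noise on each array. That cannot show how the shared deviations of same-numbered arrays, described below, affect the p-values. Where the lower group has an array under the floor, a fold is given as "at least". The members and lists were chosen with earlier results of these data known. Named are all 8 members, Ikzf1, from each list up to 4 genes with the largest called change with stimulation, and the 3 genes most like each member.

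The series text reports 2 independent experiments. Deviations of same-numbered arrays from their group means correlated with r from 0.315 to 0.426 within IkL/L and from 0.492 to 0.588 within WT, and from 0.008 to 0.3 across genotypes, where 8 of 9 pairs were over 0.1. The main fit held no replicate block, so its p-values leave these shared deviations out. A block by number inside each genotype was fitted as an alternative setting. Its values stand beside each member call and each printed list count that they move by over 1.5 times. Other settings changed the block, probe set, dim filter, scaling, variance prior, arrays fitted and arrays left out. Ranges over settings include the second brightest probe set. Where a member has such a probe set, it was under the floor on all arrays, except for Mxd4.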

Additional observations from a re-analysis of the deposited data

How the results depend on the processing

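Of 20 member calls, 5 held in all settings tried (Myc at 3 h over unstimulated in both genotypes, Mxd4 likewise, and Myc for 12 h over 3 h in IkL/L), and all 20 kept their direction. Of 68 differences that were not called, 10 passed in some setting and 43 turned sign in some setting, never as a call. Counts of members called at 12 h over unstimulated cells were 6 in IkL/L and 4 in WT with replicate block within genotype, against 3 and 2 without it. With a replicate block shared by both genotypes the WT count was 4, and with a random replicate block (consensus correlation 0.166) the IkL/L count was 5. The block within genotype changed no other member call than those given in the report. The second brightest probe set, below the floor on all arrays for all members but Mxd4, left 2 for WT at 3 h, 1 for WT and 1 for IkL/L at 12 h over unstimulated, and 1 each for 12 h over 3 h. Only the arrays compared left 2 for WT 12 h over 3 h and gave 1 for IkL/L over WT at 3 h. Scaling to 8 housekeeping genes left 2 for WT 12 h over 3 h. Leaving out arrays gave 3 to 4 at 3 h in IkL/L and 3 to 4 in WT, 1 to 4 in IkL/L and 1 to 3 in WT at 12 h over unstimulated, and 2 to 4 in IkL/L and 1 to 4 in WT for 12 h over 3 h, and 0 in every genotype comparison. Housekeeping scaling moved the median of all genes by up to -0.452 and the share of higher calls at 12 h over unstimulated to 9.31% in IkL/L, against 55.3% without it, and to 23.2% in WT, against 53.9% without it. For 12 h over 3 h the share was 13.6% in IkL/L, against 58.7% without it, and 26.4% in WT, against 60%. Median centring gave 45.3% in IkL/L there and 42.3% for IkL/L over WT unstimulated, against 52.7% without it. Counts over all genes varied by over 1.5 times: leaving out arrays took those at 3 h to as few as 1963 in IkL/L, against 3719, and 1771 in WT, against 3529, and those between genotypes to as few as 16, against 205, unstimulated, 17, against 310, at 3 h and 4, against 112, at 12 h. Among the named list genes, the second brightest probe set turned Arid4b in IkL/L to 0.70 at 3 h and 0.15 at 12 h over unstimulated cells and Bin1 to -0.26 for IkL/L over WT at 12 h, and the mean of all probe sets gave 0.0153 for Arid4b at 3 h in IkL/L. Where a genotype keeps 1 array per group, it is assumed to vary like the other. Low signal limits Mycn and Mxd3 at all times and Mxd4 at 3 h in IkL/L.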

Other observations

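In the comparison of the genotypes averaged over the 3 conditions, Mxd4 averaged 5.96 over the 6 IkL/L arrays and 7.01 over the 6 WT arrays (log2 -1.05, SE 0.26, adjusted p = 0.0404). Mxi1 averaged 5.81 in IkL/L and 6.28 in WT (log2 -0.47, SE 0.12, adjusted p = 0.048), and Mnt 6.89 in IkL/L and 7.34 in WT (log2 -0.44, SE 0.13, adjusted p = 0.0758). Arrays with the same number within a genotype deviate together, which by itself makes these p-values too small. Whether the numbers also pair arrays across genotypes, which would act the other way, was not settled. With replicate within genotype as a random block 3.82% of all genes were called, and the adjusted p was 0.088 for Mxd4, 0.102 for Mxi1 and 0.112 for Mnt. With a block shared by both genotypes it was 0.0269, 0.0333 and 0.0255. When replicate 2 of IkL/L was left out in all conditions it was 0.216 for Mxd4 and 0.265 for Mxi1, and without WT replicate 2 it was 0.321 and 0.375. Without IkL/L replicate 1 it was 0.0498 and 0.0727, and without WT replicate 1 it was 0.0403 and 0.0536, with 0.0117 for Mnt. Myc, Mycn, Max, Mxd1 and Mxd3 were not called in this average.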
